A study of Sus scrofa with 4 samples.

Results

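This section describes the gene models of the Tibetan pig whose level was much the same in heart, liver, lung and kidney. A model was counted as even when it stood at 10 RPKM or more in all 4 libraries and its highest RPKM was at most 1.5 times its lowest. RPKM is a read count corrected for the length of the model and for the depth of the library. Models of 250 bases or less, models of 10000 bases or more and models on 3 scaffolds (numbers 46278, 8242 and 31207) were left out. The rule left 112 even models among 18367 models with a read in any library, and among 3938 that reached 10 RPKM in all 4 libraries and were not left out. These 112 are 2.84% of the 3938.

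All 4 groups were tissues of Sus scrofa of the Tibetan breed, named in the labels as heart, liver, lung and kidney, with 1 library each. The labels give no treatment, age, sex or number of animals. As each tissue has a single library, replicate error is unknown, no p-value is given, and every value describes a library. A lower RPKM in a tissue can come from less of the RNA per cell or from fewer cells that hold it, and bulk libraries do not separate these. The rule itself was made of the RPKM values, so the levels, ratios and tissue orders of the even models are given as descriptions only.

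Genes needed by every cell, such as those for protein synthesis, energy supply and the cytoskeleton, are often called housekeeping genes, and they are used as references when the RNA of different tissues is compared. An RPKM is a share of a library and not an amount of RNA per cell. A gene can therefore be even in share while the RNA per cell differs, and when a tissue spends much of its RNA on a few secreted or contractile proteins, the shares of its other genes fall. Identifiers in the files have the form evm.model.scaffold with a scaffold number and a model number, and 0 of them matched a table of pig gene names. The even models could therefore not be sorted into housekeeping or other roles, the tissue labels could not be checked against marker genes, and no sequence could be read for them.

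The libraries ranged in depth from 4090775 reads (liver) through 5486480 (kidney) and 8853076 (lung) to 14062622 (heart). The 100 models of most reads took 53.0% of the liver reads, 39.0% of the heart reads, 23.4% of the kidney reads and 20.8% of the lung reads. The even models took about 1% of each library, from 0.823% of the liver reads (95% interval 0.815 to 0.832) over 0.922% in lung (0.916 to 0.928) and 0.976% in heart (0.971 to 0.981) to 1.03% in kidney (1.02 to 1.04). The 485 models that met the rule after median-ratio scaling, described below, took more, at 2.59% of the liver, 3.80% of the heart, 5.09% of the kidney and 5.73% of the lung reads. All 3938 models at 10 RPKM or more in every library took 48.7% of the heart, 34.4% of the liver, 56.4% of the lung and 56.3% of the kidney reads.

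Most even models stood at moderate levels. Their RPKM ran from 11.1 through a median of 31.8 to 965 in heart, and from 10.01 through 29.6 to 678 in liver. In lung it ran from 11.2 through 32.5 to 769, and in kidney from 12.4 through 35.8 to 921. The 4 medians lay close together, with liver lowest and kidney highest. By the geometric mean of the 4 libraries, 86 of the 112 were under 50 RPKM, 14 were between 50 and 100, and 12 were at 100 or more. The median of these geometric means was 32.4 RPKM (quartiles 22.7 and 47.4), against 40.6 (quartiles 26.2 and 75.4) for the 3826 other models at 10 RPKM or more in every library.

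**Figure D1:**
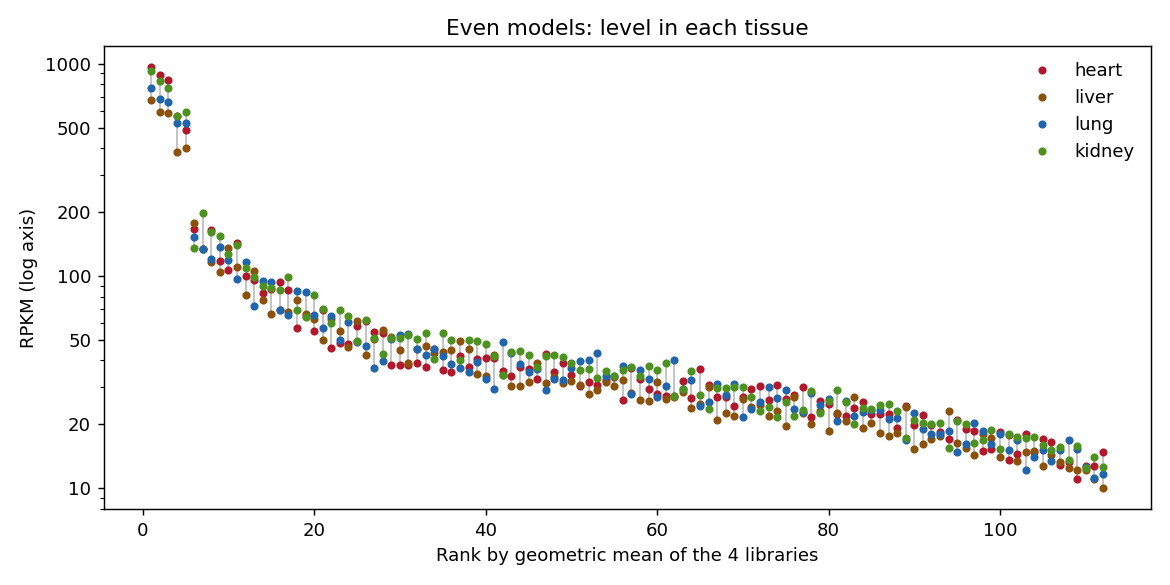
RPKM of the 112 even models in each tissue library (log axis), ordered by their geometric mean over the 4 libraries; grey lines join the lowest and the highest value of a model. A group of 5 models lies at geometric means of 497 to 825 RPKM, and the next model follows at 157.

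The highest levels belonged to 5 models that stood apart from the rest. The lowest of these had a geometric mean of 497 RPKM and the next even model one of 157. These 5 held between 34.3% (liver) and 40.6% (heart) of all reads on even models, with 36.2% in lung and 37.9% in kidney. The model of highest level, evm.model.scaffold23420.8, of 2202 bases, stood at 965 RPKM in heart, 921 in kidney, 769 in lung and 678 in liver. It rested on 29878, 11123, 14998 and 6103 reads in the same order, so its ratio of highest to lowest, 1.42, had a narrow counting interval (95% interval 1.39 to 1.46). Heart and kidney were close to each other in this model, lung was lower and liver lowest.

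The next 2 models followed the same order. The model evm.model.scaffold21275.2, of 528 bases, stood at 882 RPKM in heart, 831 in kidney, 684 in lung and 593 in liver, a ratio of 1.49 (95% interval 1.401 to 1.58). The model evm.model.scaffold27073.4, of 615 bases, stood at 839, 771, 663 and 587 RPKM, a ratio of 1.43 (1.35 to 1.51). Set to the heart value of each model, the 3 profiles nearly lay on top of each other: liver stood at 70.2%, 67.2% and 70.0%, lung at 79.7%, 77.5% and 79.0%, and kidney at 95.4%, 94.2% and 91.9%. Their scaffolds carry different numbers.

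This likeness was looked for after the values had been seen. As a measure of it, the deviations of each model from its own mean were compared on the log2 scale over the 4 libraries, and the largest difference from evm.model.scaffold23420.8 in any tissue was taken. Among the 111 other even models, evm.model.scaffold21275.2 ranked first with a difference of 0.032 and evm.model.scaffold27073.4 second with 0.036. After them came evm.model.scaffold9623.20 with 0.037, a model at 69.4 RPKM in heart, 69.7 in kidney, 56.8 in lung and 49.9 in liver. The rule limits how far the profiles of even models can differ, and models outside the even set were not ranked. The liver value of evm.model.scaffold9623.20 rested on 142 reads, with a counting interval of 42.0 to 58.8 RPKM. Counting error is thus wider than the gaps between these differences, and no special likeness is read from the ranking. How reads with several matches were counted is not stated, so whether near-identical copies share reads among these models was not tested.

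The remaining 2 of the 5 differed from the first 3 in lung. The model evm.model.scaffold42050.1, of 623 bases, stood at 565 RPKM in heart, 566 in kidney, 525 in lung and 386 in liver. The model evm.model.scaffold43783.32, of 1038 bases, stood at 485, 593, 526 and 402 RPKM. Lung was at 92.9% of heart in the former and at 108% in the latter, where heart was below both lung and kidney. In all 5 models of highest level the liver library was the lowest, and the ratio of highest to lowest lay between 1.42 and 1.49.

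The 4 models of lowest ratio had geometric means of 12.5, 33.4, 43.6 and 32.8 RPKM, from the lowest ratio up. The median of the even models was 32.4 RPKM, so only the first of them stood well below it. The smallest ratio of all 3938, 1.05 (95% interval 0.79 to 1.41), was that of evm.model.scaffold29226.2, of 1248 bases, at 12.7 RPKM in heart, 12.4 in kidney, 12.6 in lung and 12.1 in liver. It had 62 reads in liver, and its interval shows that a true ratio anywhere up to 1.41 would be within counting error. The next, evm.model.scaffold12185.47, stood at 32.4, 35.6, 33.9 and 31.8 RPKM, a ratio of 1.12 (0.79 to 1.59). It had 58 liver reads, and its interval reached past the limit of 1.5. Of the next 2, evm.model.scaffold29209.22 stood at 45.2 RPKM in heart, 40.6 in kidney, 45.4 in lung and 43.3 in liver (ratio 1.12, 0.94 to 1.34). The other, evm.model.scaffold15014.10, stood at 33.4, 34.0, 33.8 and 30.2 RPKM (ratio 1.12, 0.91 to 1.39). In each of these 4 models the interval of the ratio held 1, so no tissue was separated from another by counting.

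Across the 112, the ratio of highest to lowest had a median of 1.397, with quartiles of 1.302 and 1.454. Only 1 model was at 1.1 or less and 9 were at 1.2 or less, while 54 lay above 1.4. Over all 3938 models the median ratio was 3.08, with quartiles of 2.26 and 4.92 and a highest value of 359. The even models are thus the low end of a continuous spread: 624 models (15.8%) lay within a ratio of 2 and 1892 (48.0%) within 3.

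**Figure D2:**
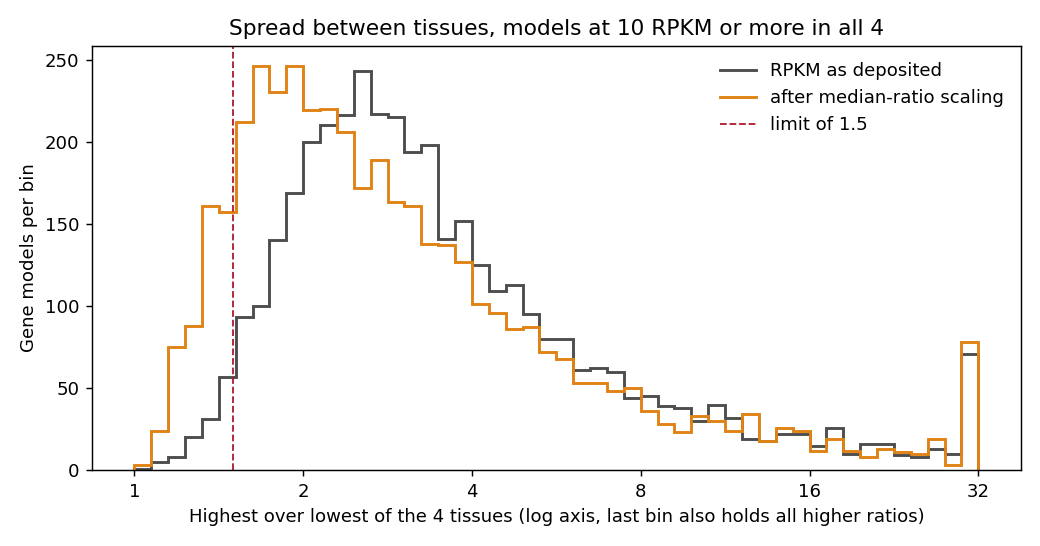
Number of gene models by the ratio of their highest to their lowest tissue (log axis), for models at 10 RPKM or more in every library, as deposited and after median-ratio scaling, with the limit of 1.5 as a dashed line. The count rises across the limit without a gap, and 112 models lie below it as deposited and 485 after scaling.

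The limit of 1.5 fell where many models lie. Just inside it were evm.model.scaffold11160.116, at 86.0 RPKM in heart, 98.5 in kidney, 65.7 in lung and 68.0 in liver (ratio 1.499), and evm.model.scaffold39376.22, at 26.6, 35.7, 32.4 and 23.9 RPKM (ratio 1.496). Just outside it were evm.model.scaffold36827.13, at 80.0, 120, 109 and 105 RPKM (ratio 1.502), and evm.model.scaffold3768.1, at 31.2, 46.4, 47.0 and 39.1 RPKM (ratio 1.506). No gap separates them, and 80 models lay between 1.5 and 1.6.

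The level limit gave the same picture. The even models closest to it were evm.model.scaffold39150.4, whose lowest value was 10.01 RPKM in liver, with 14.8 in heart, 11.7 in lung and 12.6 in kidney, and evm.model.scaffold27492.4, at 12.8 RPKM in heart, 14.0 in kidney, 11.2 in lung and 11.04 in liver. Below it, evm.model.scaffold5933.9 missed with a liver value of 9.85 RPKM, at 10.96 in heart, 10.5 in lung and 13.2 in kidney. The next below was evm.model.scaffold21760.16, with 9.45 RPKM in lung against 10.4 in heart, 10.2 in liver and 12.2 in kidney. A further even model, at 15.2, 22.6, 17.6 and 17.4 RPKM in heart, kidney, lung and liver, was left out only because it lies on scaffold 46278.

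Both the ratio and the depth bore on how firmly a model could be called even. The library with the fewest reads on a model held a median of 160.5 reads, and 29 of the 112 had under 100 reads in some library. For 27 models the counting interval of the ratio of highest to lowest lay wholly below 1.5. These 27 had a median of 267 reads in their least covered library, against 153 for the other 85, whose intervals reached past 1.5. The highest ratio among the 27 was 1.42, whereas 54 of the 112 lay above 1.4. The model evm.model.scaffold43783.32, with 1707 liver reads and a ratio of 1.47, had an interval that reached 1.56, while evm.model.scaffold29226.2, with 62 liver reads, stayed below the limit. From the other side, 277 models above the limit had intervals that reached below it. The interval held 1 for 15 even models, with ratios of 1.05 to 1.32, and lay wholly above 1 for 97, so most even models still had a highest and a lowest tissue that differed beyond counting error. The intervals cover counting error only, and the pair of tissues was picked as the highest and lowest of 4.

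**Figure D3:**
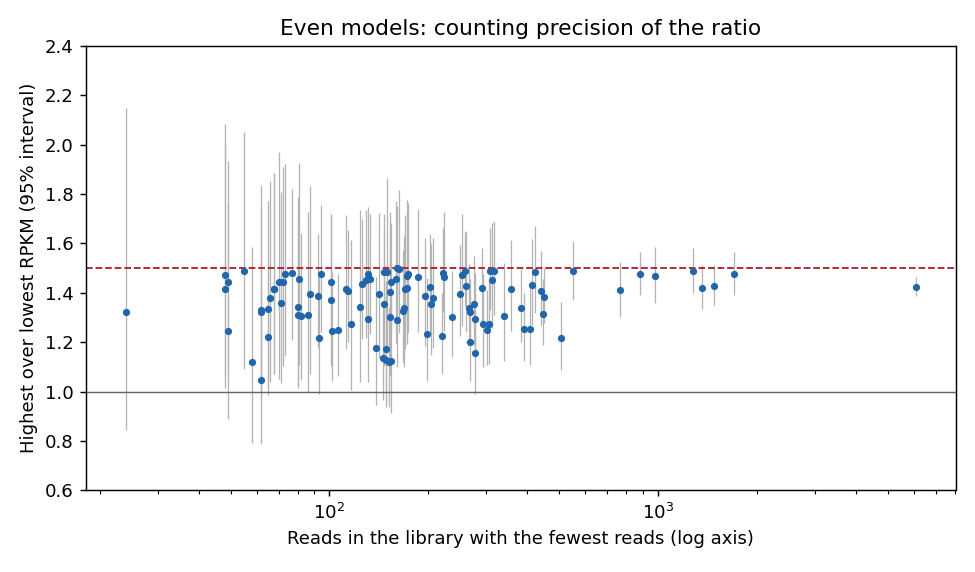
Ratio of highest to lowest RPKM of each even model with its 95% counting interval, against the reads in its least covered library (log axis); the dashed line is the limit of 1.5 and the solid line is 1. Intervals narrow from left to right, and the model with 6103 reads at the far right has an interval of 1.39 to 1.46.

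Within the allowed range, kidney was most often the highest and liver most often the lowest tissue. Kidney was highest in 48 of the 112 (40.4% of all 3938), heart in 27 (18.6%), lung in 26 (35%) and liver in 11 (5.99%). Liver was lowest in 58 (52.7% of all 3938), lung in 23 (18.5%), heart in 21 (25.1%) and kidney in 10 (3.76%). The most frequent full order, kidney above lung above heart above liver, was found in 17 models, and 23 of the 24 possible orders occurred. Over all 3938 models, 2 tissues taken alone lay within 1.5-fold in 41.9% (lung and kidney), 41.6% (heart and kidney), 39.9% (heart and liver), 36.7% (heart and lung), 31.8% (liver and lung) and 26.7% (liver and kidney). All 112 even models did so in every pair, by the rule. Within that range, kidney exceeded liver in 90 of the 112 and heart exceeded liver in 78, while heart and lung were split 54 to 58. The rule used these values, so nothing is read from these counts.

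On the log2 scale, the median deviation from the mean of the 4 libraries was 0.13 in kidney, 0.01 in heart, near 0 in lung and -0.14 in liver for the even models. For the 3826 other models it was 0.40 in kidney, -0.13 in heart, 0.22 in lung and -0.55 in liver. The smaller deviations of the even models are set by the rule, which caps the spread between tissues. The direction depends on scaling: after the median-ratio scaling described below, liver was the highest tissue in all 112, as the divisors used there require.

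**Figure D4:**
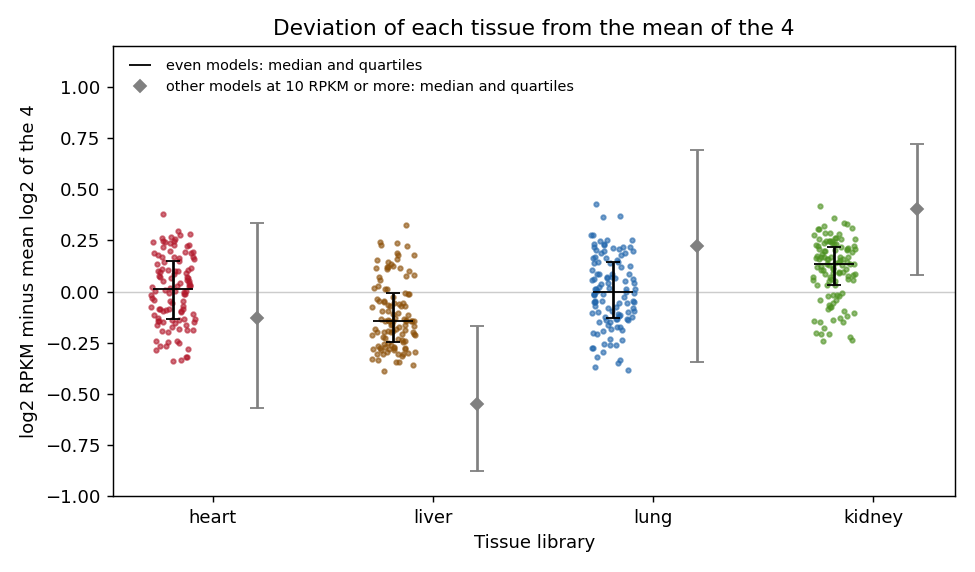
Deviation of each tissue from the mean of the 4 libraries (log2 RPKM) for each of the 112 even models (coloured points, with median and quartiles in black) and, in grey, median and quartiles of the 3826 other models at 10 RPKM or more in every library. The even models have medians of 0.13 in kidney and -0.14 in liver, and the other models 0.40 and -0.55.

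For each tissue, the even model of highest geometric mean among those highest in that tissue was named. The 4 models therefore differ in their leading tissue by choice. Among those highest in liver the leading model was evm.model.scaffold46839.1, of 468 bases, at 178 RPKM in liver, 166 in heart, 152 in lung and 136 in kidney. Among those highest in lung it was evm.model.scaffold15014.2, of 4071 bases, at 116 RPKM in lung, 109 in kidney, 100.3 in heart and 81.7 in liver. The leading models in heart and in kidney were evm.model.scaffold23420.8 and evm.model.scaffold42050.1, described above. The liver-led model was the only one of these 4 in which liver was not the lowest tissue.

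As deposited, being even in 3 tissues did not go with a steadily higher share of like levels in the remaining one. Each tissue was held out in turn, models were chosen as even from the other 3 libraries alone, and the value in the held-out library, which the choice had not used, was compared with the geometric mean of the 3. Without liver, 849 models were even in heart, lung and kidney (16.1% of those at 10 RPKM or more there). In liver 207 of the 849, or 24.4%, came within 1.5-fold of that mean, against 26.5% of the models that were not even in the 3. Of the rest, 620 lay below and 22 above. The median liver level of the 849 was 0.51 times the mean of the 3, against 0.52 for the models not even in the 3. Only 13.2% of the 849 were among the 112.

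The other tissues gave smaller sets. Without heart, 391 models were even (8.8%), and heart came within 1.5-fold in 43.5% of them, against 43.6% of the models not even in the 3. Without lung, 380 were even (9.11%), and lung came within 1.5-fold in 44.7%, against 38.9%. Without kidney, 470 were even (11.7%), and kidney came within 1.5-fold in 38.7%, against 47.6%. The share was thus higher for even models in lung, lower in kidney, only slightly lower in liver and almost equal in heart. Kidney missed mostly upwards, with 275 models above and 13 below. The models are not independent replicates and share the 4 libraries, so no test of these differences is given.

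**Figure D5:**
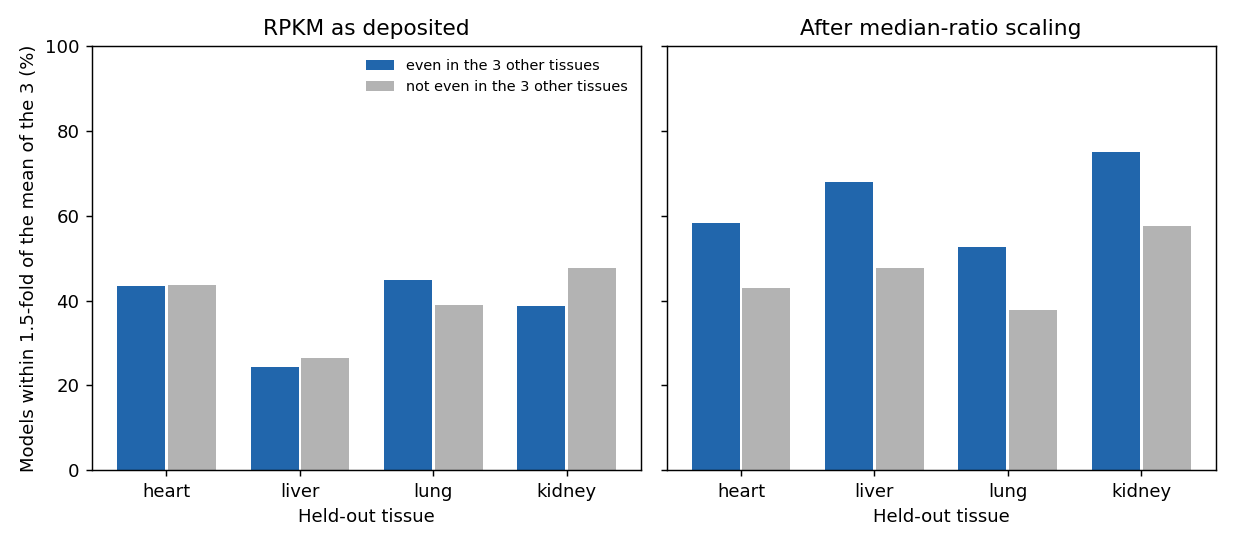
Percent of gene models whose level in the held-out tissue was within 1.5-fold of the geometric mean of the 3 other tissues, for models even in those 3 (blue) and for the other models at 10 RPKM or more there (grey), as deposited and after median-ratio scaling. As deposited the bars of a pair differ in both directions. After scaling, with divisors taken from all 4 libraries, the blue bar is the higher in all 4 tissues.

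Which models count as even depended on how the libraries were scaled. Median-ratio scaling sets the typical model to the same level in each library. It divides a library by its median ratio to the 4-library geometric mean, here taken over the 10247 models above 1 RPKM everywhere. The divisors were 1.38 (lung), 1.27 (kidney), 0.927 (heart) and 0.614 (liver). After it, 485 models met the same rule (11.2% of 4349), and 0 of the 112 were among them. This absence follows from the factors: that of lung was 2.251 times that of liver, just more than 1.5 times 1.5 (2.25), so no model can be within 1.5-fold under both scalings. The 112 had ratios of 1.52 to 3.27 after scaling, with a median of 2.14, and liver was the highest tissue in all 112. This too follows from the factors, because those of heart, lung and kidney were each more than 1.5 times that of liver. For the same reason, all 485 had liver as their lowest tissue as deposited, with lung highest in 339 and kidney in 146.

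The evenest model shows the size of this shift. The model evm.model.scaffold29226.2, with a ratio of 1.05 as deposited, had a ratio of 2.17 after scaling, and evm.model.scaffold23420.8 went from 1.42 to 1.98. The lowest scaled ratio among the named models was 1.58, for evm.model.scaffold15014.2. With the held-out comparison repeated after scaling, models even in 3 tissues came within 1.5-fold in the remaining one more often than the other models did, at 58.2% against 42.9% in heart and 68.0% against 47.7% in liver. In lung the values were 52.6% against 37.8%, and in kidney 75.1% against 57.6%. The divisors came from all 4 libraries, so the held-out library was not left unused as it was before. For models even in the other 3, the median liver level was 1.01 times their mean, against 0.51 as deposited. For the models not even in the 3 it was 0.99, against 0.52 as deposited, so this shift was not particular to the even models. The even set and the carry-over to the held-out tissue thus both changed with the scaling.

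Length was not used by the ratio, since it cancels between tissues. The even models had a median length of 1287 bases (quartiles 737 and 2049), against 1149 (699 and 1872) for the 3826 others. With the level limit at 1 RPKM the order turned, at 1332 bases against 1361. The longest, evm.model.scaffold3958.3, of 4917 bases, stood at 14.8 RPKM in heart, 17.5 in kidney, 14.0 in lung and 14.96 in liver. The shortest, evm.model.scaffold5254.2, of 255 bases, stood at 37.1, 53.6, 42.5 and 47.0 RPKM. Both were highest in kidney. A length that is a multiple of 3, as a coding sequence has, was found in 103 of the 112 (92.0%) and in 93.5% of the others.

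The share of even models varied with length, without a steady trend. It was 1.96% (10 of 511) up to 500 bases, 2.86% (33 of 1152) from there to 1000 bases, 2.25% (20 of 888) to 1500 bases, 3.90% (20 of 513) to 2000 bases, 4.28% (21 of 491) to 3000 bases and 2.09% (8 of 383) above. Models between 1500 and 3000 bases thus had the highest shares. The 48 even models highest in kidney had a median length of 1692.5 bases, against 1029 bases for the other models highest in kidney. The 26 highest in lung had a median of 996 bases, against 1425 bases for the other models highest in lung. For heart the medians were 1269 bases for 27 even models and 976.5 for the others, and for liver 840 bases for 11 even models and 1170 for the others. These groups are small and rest on the highest tissue, a value the rule used, so nothing is read from them.

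By level, the share was 5.53% (23 of 416) for models with a geometric mean of 10 to 20 RPKM, 3.02% (28 of 928) for 20 to 30, 3.43% (35 of 1019) for 30 to 50, 1.59% (14 of 883) for 50 to 100 and 1.73% (12 of 692) at 100 or more. The lowest range is bounded by the rule, because a model with a geometric mean near 10 RPKM and no value under 10 cannot have a wide ratio. Over the 3 upper ranges, which lie farther from that limit, the median ratio of all models was 3.25, 3.35 and 4.18.

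The even models were scattered over the assembly. They lay on 105 scaffolds, 98 with 1 even model and 7 with 2, and no scaffold held more than 2. The models of 10 RPKM or more lay on 1428 scaffolds. On scaffold 20960, the one of the 7 whose members reached the highest level, evm.model.scaffold20960.20 stood at 25.4 RPKM in heart, 23.9 in kidney, 23.0 in lung and 19.2 in liver. The second member, evm.model.scaffold20960.31, stood at 107, 127, 119 and 136 RPKM. By RPKM the former was lowest and the latter highest in liver. The liver value of the former rested on 24 reads, with a counting interval of 12.3 to 28.6 RPKM. The interval of its ratio of highest to lowest, 0.84 to 2.15, held 1, so liver as its lowest tissue was not separated by counting. In all 7 pairs the 2 models had different highest tissues, and their model numbers were 2 to 41 apart. On scaffolds 12185, 15014, 20960, 26130 and 43200, the interval of the ratio held 1 for at least 1 member. The highest tissue of such a member was not separated by counting. How often 2 even models of different scaffolds differ in highest tissue was not tested. The highest tissue is also a value the rule used, so nothing is read from the 7 pairs.

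No even model had another even model as its neighbour, taking neighbours as models of the same scaffold whose numbers differ by 1. The 112 had 173 listed neighbours, of which 48 (27.7%) were also at 10 RPKM or more in every library, against 28.4% for the neighbours of the other models. The 48 had ratios of 1.76 to 24.4, with a median of 2.93, against a median of 3.11 for the neighbours of the other models, 2.85% of which were even. Neighbours at 1 RPKM or more in every library numbered 118 of 173 (68.2%), against 66.8% for the other models. Of the 485 models even after median-ratio scaling, 32 (6.60%) had an even neighbour, so the absence of such neighbours did not hold under that scaling. Even models were also a larger share there, at 11.2% of 4349 models against 2.84% of 3938 as deposited. With 48 neighbours and 2.84% of all 3938 models even, finding 0 is near the background share. The 2.85% counts the same neighbour pairs from the other side, so it is not a separate background. Nothing is therefore read from the absence or from its loss.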

How the data were processed

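RNA libraries of heart, liver, lung and kidney were made, per the labels' protocols, from Trizol-extracted total RNA with an Illumina TruSeq kit. TopHat, a spliced aligner, is named in the submitters' processing notes, with no version. Not given in the sources used here are the counter, its use of strand and of reads with several matches, the build and the annotation.

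For each library the authors deposited whole read counts per gene model, per the file headers, with the model's length and the library total. The deposited RPKM equals count divided by length and total. Models that a table does not list were set to 0 reads. Identifiers carry no gene names, so coordinates, annotations and sequences are not reported. The members, the lists and the rules for naming models were chosen with earlier results of these data known.

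Even models were found by joining the 4 tables on the identifier: 4058 models were at 10 RPKM or more in all 4 libraries and 120 of these were left out by length or scaffold, which removed 1 of 113 even models. Named were the even models of highest level (5), of lowest ratio (4), those next to each limit on both sides, the longest and shortest, the leading one per highest tissue, and those of 1 scaffold among 7 tied for the most members. Pairs of neighbouring members were to be named and none existed. The 95% intervals are exact (Poisson for counts, Clopper-Pearson for shares of reads and ratios of 2 counts) and cover counting error only. At the median length of the even models, 1 read was worth 0.190 RPKM in liver, 0.142 in kidney, 0.0878 in lung and 0.0553 in heart. With 1 library per tissue no test was run. Alternatives were in the ratio, the level limit, the scaling, the pseudocount, the models left out, depth and the tissues used. The rule and the intervals were tested on simulated data. The models simulated for the rule were of higher level and greater length than most even models. The interval of a ratio was checked for a fixed pair of expected counts, not for the highest and lowest picked from 4 tissues. The work used scipy 1.17.1, numpy 2.4.6 and pandas 2.3.3 under Python 3.11.15, with figures from matplotlib 3.10.9.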

Additional observations from a re-analysis of the deposited data

How the results depend on the processing

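No paired analysis was possible because the groups hold 1 library each. The count of 112 even models stayed within 1.5 times with a limit of 1, 5 or 20 RPKM (159, 140 and 82), TPM-like scaling (168, of which 85 were among the 112), a pseudocount of 1 (129), no models left out (113) and thinning to the liver total (111, of which 90 were among the 112). It moved to 17 at the tighter ratio tried, 624 at a ratio of 2 and 27 when the upper counting limit of the ratio had to be at most 1.5. Without one tissue the rule gave 391 (heart), 849 (liver), 380 (lung) and 470 (kidney), since fewer values have to meet it. Without the 100 models of most reads in the library totals, 484 models of 5775 (8.38%) were even, 39 of them among the 112. Median-ratio scaling gave 485 even models (11.2% of 4349), with 2.59% of liver, 3.80% of heart, 5.09% of kidney and 5.73% of lung reads. Under that scaling, whose divisors used all 4 libraries, 32 of the 485 (6.60%) had an even neighbour. Held-out shares of models even in 3 tissues moved under it to 58.2% (heart), 68.0% (liver), 52.6% (lung) and 75.1% (kidney), and those of the other models to 47.7% in liver and 57.6% in kidney. Median lengths moved to 1090.5 bases for even models at 20 RPKM, and for other models to 1361 at 1 RPKM and 987 at 20 RPKM, so even models were longer at 20 RPKM and shorter at 1 RPKM, where their median was 1332. Of 92 ratios of named models under 4 other settings, 39 left their counting intervals, 21 of them under median-ratio scaling. The causes of these shifts were not tested. Depth limits low values most in liver.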
